A study of Mus musculus with 2 samples.

Results

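Lipid-associated macrophage genes are a set of transcripts by which macrophages of fat tissue that handle large amounts of lipid are recognised. Here 9 of them, Trem2, Gpnmb, Spp1, Lipa, Apoe, Lgals3, Ctsd, Ctsb and Cd63, were taken by symbol from the 32285 genes of the tables. The rule is a list of symbols and holds no measured value. They were described chiefly in cells with a count of at least 4 of 7 macrophage markers (C1qa, C1qb, C1qc, Pf4, Csf1r, Adgre1 and Cd68), called macrophage-gated cells below, of which there were 543 among 10218 cells on a low-fat diet (LFD) and 540 among 8545 cells on a high-fat diet (HFD). The cells came from the stromovascular fraction (SVF) of perigonadal white adipose tissue (gWAT), that is, the tissue without its floating adipocytes, of male Cyp1a1Cre x R26LSL-eYFP mice on a diet of 10% fat (LFD) or 60% fat (HFD) for 12 weeks. Mice of both diets had received FICZ, a ligand of the aryl hydrocarbon receptor (AHR), at 10 mg/kg 5 days before collection. Cre in these mice is driven by Cyp1a1, an AHR target gene, so sorting live eYFP+ cells kept only cells with a history of Cyp1a1 activity, and macrophages without it are not in the data. Each diet is 1 library of pooled mice, so diet and library cannot be told apart and no difference between diets was tested.

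Fat tissue macrophages take up lipid that adipocytes release, break it down in lysosomes and pass cholesterol on to lipoproteins. TREM2 is a surface receptor that binds lipids and lipoproteins and signals through the adaptor TYROBP, and GPNMB is a membrane glycoprotein of late endosomes and lysosomes. Osteopontin (Spp1), apolipoprotein E (Apoe) and galectin 3 (Lgals3) are secreted, lysosomal acid lipase (Lipa) hydrolyses cholesteryl esters and triglycerides, cathepsins D and B (Ctsd, Ctsb) are lysosomal proteases, and CD63 is a tetraspanin of late endosomes.

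The 9 genes are protein coding and lie on 7 chromosomes of GRCm38 (GENCODE M21). Trem2 is on chromosome 17 (48346401 to 48354147), Gpnmb on chromosome 6 (49036546 to 49070929), Spp1 on chromosome 5 (104435118 to 104441050), Lipa on chromosome 19 (34492318 to 34527474) and Cd63 on chromosome 10 (128900989 to 128912822). Apoe (19696109 to 19699188) and Ctsd (142375911 to 142388038) share chromosome 7, and Lgals3 (47367751 to 47386160) and Ctsb (63122462 to 63145923) share chromosome 14. Gm42793 overlaps Spp1 and Gm49369 overlaps Ctsd on the same strand, so counts of these members are uncertain where the authors' counting could not split the pair.

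Promoter windows of RefSeq (GRCm38.p6) were found for 8 members, and Ctsb is named only. The promoters of Trem2, Gpnmb and Ctsd are shown because the results below turn on splitting cells by Trem2 and Gpnmb and on Ctsd, the member whose counts were most tied to Gpnmb in the LFD library. Each runs from 250 bases before the transcript start to 30 bases after it, and capitals mark matches, on either strand, to CACGTG (the E-box bound by the lysosomal regulator TFEB), GCGTG (the core of the AHR motif) or TGANTCA (the AP-1 motif).
Trem2, chr17:48346151-48346430, plus strand: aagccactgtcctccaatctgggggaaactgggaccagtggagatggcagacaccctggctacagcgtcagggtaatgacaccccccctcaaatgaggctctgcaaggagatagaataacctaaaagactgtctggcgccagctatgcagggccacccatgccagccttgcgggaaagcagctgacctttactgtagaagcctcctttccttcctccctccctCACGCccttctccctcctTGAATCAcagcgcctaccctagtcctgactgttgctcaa
Gpnmb, chr6:49036268-49036547, plus strand: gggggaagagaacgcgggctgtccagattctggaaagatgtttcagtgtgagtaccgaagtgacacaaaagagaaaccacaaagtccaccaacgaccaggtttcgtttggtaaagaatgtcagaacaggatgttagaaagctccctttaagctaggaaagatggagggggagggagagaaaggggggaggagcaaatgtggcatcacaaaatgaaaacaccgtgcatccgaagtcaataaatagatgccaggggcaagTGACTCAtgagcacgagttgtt
Ctsd, chr7:142387798-142388077, minus strand: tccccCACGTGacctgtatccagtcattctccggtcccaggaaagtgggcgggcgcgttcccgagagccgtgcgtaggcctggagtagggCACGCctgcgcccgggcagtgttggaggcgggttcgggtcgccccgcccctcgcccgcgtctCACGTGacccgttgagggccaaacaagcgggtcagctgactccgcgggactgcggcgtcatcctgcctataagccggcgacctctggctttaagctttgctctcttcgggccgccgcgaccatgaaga
Ctsd held CACGTG 245 and 98 bases before the start and GCGTG 160 bases before it. Trem2 held GCGTG 27 and TGANTCA 9 bases before the start, and in Gpnmb TGANTCA began at base 9 of the transcript, counting the start as 1. In the full windows of 300 bases, CACGTG was present in 1 of the 8 members and in 7.15% of all 32851 RefSeq promoters, GCGTG in 3 members and 32.4% of promoters, TGANTCA in 2 members and 7.81%, and GAGGAA, the core of the PU.1 motif, in 5 members and 28.3%. No 2 of the marked matches overlap, and a match describes letters in the window, not binding.

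The LFD library held 114311020 and the HFD library 119498750 UMIs (unique molecular identifiers, one per captured transcript), with a median of 10633.5 and 13224 per retained cell. Macrophage-gated cells were shallower, at a median of 4902 and 6796.5 UMIs. Their share was 5.31% (95% exact binomial interval 4.89 to 5.77%) with LFD against 6.32% (5.81 to 6.86%) with HFD, an order that turned to 5.21% and 4.44% among cells with under 5% mitochondrial UMIs. Of the 2 libraries' barcodes 27 were shared, 1 of them macrophage-gated in both. Ptprc, the pan-leukocyte gene and no part of the gate, was detected in 70.7% and 85.7% of these cells, at 259.7 and 292 CPM (counts scaled to 1000000 UMIs) against 47.7 and 86.2 CPM in all other cells. Genes of other cell types were present too. The 7 fibroblastic markers summed to 2781 CPM in LFD and 2239 CPM in HFD macrophage-gated cells, almost all of it Col3a1 (2615 and 2018 CPM), against 16823 and 19709 CPM in fibroblastic cells. The 7 plasma cell markers summed to 382 and 908 CPM, the 7 neutrophil markers to 204 and 58.5 CPM and the 7 B cell markers to 94.5 and 66.7 CPM. A second gate was passed by 61 LFD (11.2%) and 93 HFD (17.2%) macrophage-gated cells. The part of these other transcripts in the results was not tested beyond the values given with such cells left out. All intervals cover counting error only.

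Across diets the macrophage-gated cells differed little in most of these genes. Of the 9 members 0 were higher and 1, Apoe, was lower in the HFD library by at least 1.5-fold, where 6.65% of the 9164 genes with at least 50 counts were higher and 4.31% were lower by that fold. The median log2 ratio of HFD to LFD over the members was -0.063, and over all these genes it was 0.049. Summed, the 9 genes accounted for 2.34% of all UMIs of LFD and 2.00% of HFD macrophage-gated cells. Per cell that share ran from 0.0973% to 11.7% with a median of 1.96% in LFD, and from 0.144% to 15.4% with a median of 1.72% in HFD, so the ranges overlapped almost wholly.

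Among the surface proteins, LFD cells held Trem2 at 464 CPM (95% interval 441 to 488) and HFD cells at 536 CPM (515 to 558). Single cells ran from 0 through a median of 395 to 3011 CPM in LFD and from 0 through 469 to 2871 CPM in HFD. The HFD to LFD ratio was 1.16 (1.08 to 1.23), above 1 by more than counting error yet well short of 1.5. For Gpnmb the LFD level was 835 CPM (804 to 867) and the HFD level 608 CPM (586 to 632), which gave 0.729 (0.691 to 0.769) as the ratio. The median LFD cell had 306 CPM of Gpnmb and the median HFD cell 0, with highest cells at 10402 and 7838 CPM. The Gpnmb ratio was 0.951 among cells with under 5% mitochondrial UMIs and 0.458 among the 26 LFD and 79 HFD macrophage-gated cells without a UMI of Col1a1, Col1a2 or Col3a1, a subset chosen after seeing the data. Cd63 differed within counting error, with 899 CPM (866 to 932) against 860.05 CPM (833 to 888) and a ratio of 0.957 (0.912 to 1.005). Its cells ran from 0 through a median of 612 to 5014 CPM in LFD and from 0 through 639 to 5642 CPM in HFD.

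Of the secreted proteins, Apoe differed most. LFD cells held 9362 CPM (9257 to 9468) against 6201 CPM (6128 to 6274) in HFD cells, and the ratio was 0.662 (0.652 to 0.673). The median cell had 5329 CPM in LFD and 4429 CPM in HFD, and the highest cell 81055 and 48437 CPM, so that the libraries lay further apart among the strongest cells than in the middle. The Apoe ratio was 0.710 with cells of a second gate left out and 0.715 with a minimum of 3 markers, both lower in HFD but short of the 1.5-fold call. With each cell weighed equally it was 0.687, also short of it, and Gpnmb at 0.655 was the 1 member past the call. Spp1 had nearly equal sums, 2842 CPM (2785 to 2901) against 2848 CPM (2799 to 2897), and a ratio of 1.002 (0.975 to 1.03). Without the top cell of each library the Spp1 ratio was 0.938, below that interval. Its cells were less alike: the median cell had 923 CPM of Spp1 in LFD and 353 CPM in HFD, and the highest cell 43884 and 98692 CPM. The Spp1 ratio lay on either side of 1 with the choice of cells, from 0.855 in cells without collagen UMIs to 1.22 under the stricter mitochondrial limit. Lgals3 had the highest ratio of the members, 1.24 (1.20 to 1.28), from 1991 CPM (1943 to 2040) in LFD against 2473 CPM (2428 to 2520) in HFD. Its median cell was at 1634 and 1673 CPM and its highest at 18633.5 and 21135.5 CPM, and the ratio turned to 0.946 in cells without collagen UMIs.

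The 3 lysosomal enzymes all had ratios between 0.886 and 1.11. Lipa stood at 348 CPM (328 to 369) in LFD cells against 385 CPM (367 to 404) in HFD cells, and the ratio of 1.11 (1.03 to 1.19) was 0.977 when each cell counted equally. For Ctsd, 3199.7 CPM (3138 to 3262) stood against 2834 CPM (2785 to 2884), and the ratio was 0.886 (0.863 to 0.909). For Ctsb, 3501 CPM (3437 to 3566) stood against 3255 CPM (3202 to 3308), and the ratio of 0.930 (0.907 to 0.953) was 1.004 once cells of a second gate were left out. Single cells overlapped widely in all 3 genes. Lipa ran from 0 through a median of 263 to 2141 CPM in LFD and from 0 through 299.7 to 2463 CPM in HFD. Ctsd had medians of 2526 and 2152 CPM and highest cells of 28606 and 20781 CPM. The lowest cell had 0 CPM of Ctsb in LFD and 119.9 CPM in HFD, the medians were 3509 and 3013 CPM and the highest cells 15603 and 14496 CPM.

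**Figure D1:**
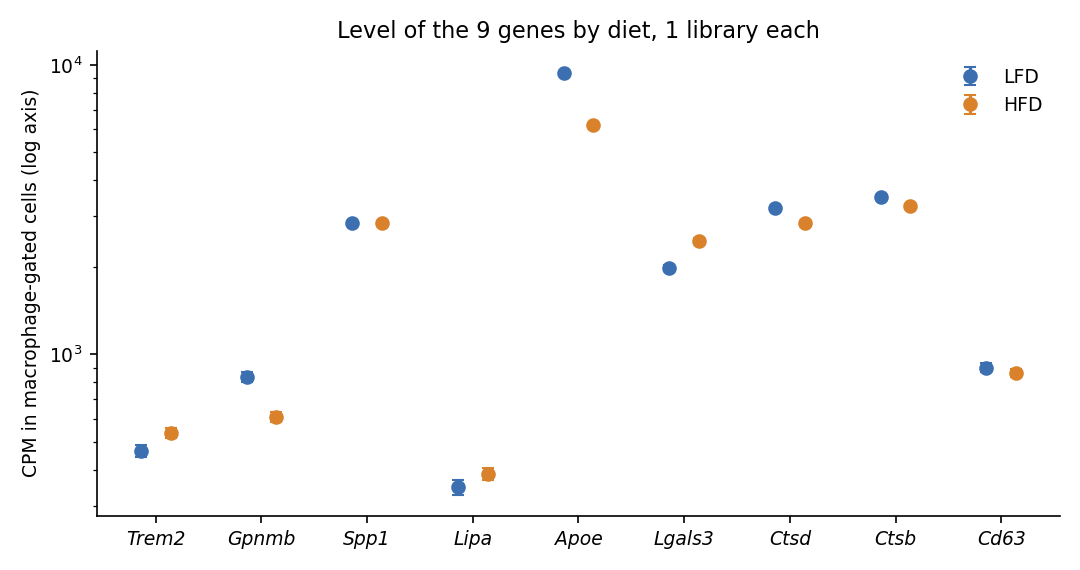
Level of each member in macrophage-gated cells, in CPM on a log axis, for the LFD (blue) and HFD (orange) library; points are sums over 543 and 540 cells and bars, mostly smaller than the points, are exact 95% Poisson intervals. Apoe (9362 against 6201 CPM) and Gpnmb (835 against 608 CPM) show the widest gaps, and the points of Spp1 lie level.

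How many cells carried each gene was compared after thinning every cell to 2000 UMIs, which left 505 LFD and 524 HFD cells and set aside 38 and 16 shallower ones. Gpnmb was found in 51.1% (46.6 to 55.5%) of the LFD and in 33.8% (29.7 to 38.0%) of the HFD cells, and Spp1 in 64.6% (60.2 to 68.7%) and 51.9% (47.5 to 56.3%). For these 2 genes the intervals did not overlap, with fewer cells in HFD. Of all 9164 genes 1.46% were separated in that direction and 2.06% in the other, and of the 379 genes with at least the 2864 UMIs of Lipa, the least counted member, 8.44% and 6.6% were. Without thinning the shares were 59.9% and 47.6% for Gpnmb and 76.6% and 61.3% for Spp1. Trem2 was found in 53.7% (49.2 to 58.1%) and 58.2% (53.9 to 62.5%) of thinned cells, 79.0% and 83.3% unthinned, with overlapping intervals. In thinned B cells, which should lack these genes and had a median depth of 4192 and 4231.5 UMIs, the shares were 0.469% and 0.271% for Gpnmb, 1.41% and 0.678% for Spp1 and 0.187% and 0.136% for Trem2. For the other 6 members the intervals of the libraries overlapped, from Lipa at 47.7% and 46.6% to Ctsb at 95.6% and 96.9%.

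Fewer cells with a nearly equal sum means more UMIs in each of them, as for Spp1. The highest thinned cell held 93 Spp1 UMIs in LFD and 199 in HFD. A thinned cell with Spp1 held a mean of 9.59 Spp1 UMIs in LFD and 11.3 in HFD, and the 10% of cells with most Spp1 carried 52.4% of its UMIs in LFD and 63.8% in HFD. For Gpnmb those cells carried 47.5% and 65.6%, whereas a cell with Gpnmb held a mean of 3.54 and 3.41 UMIs. For Ctsb, found in nearly every cell, the top 10% carried 24.96% and 26.0%. Trem2 moved the other way, with 37.6% in LFD and 33.4% in HFD.

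**Figure D2:**
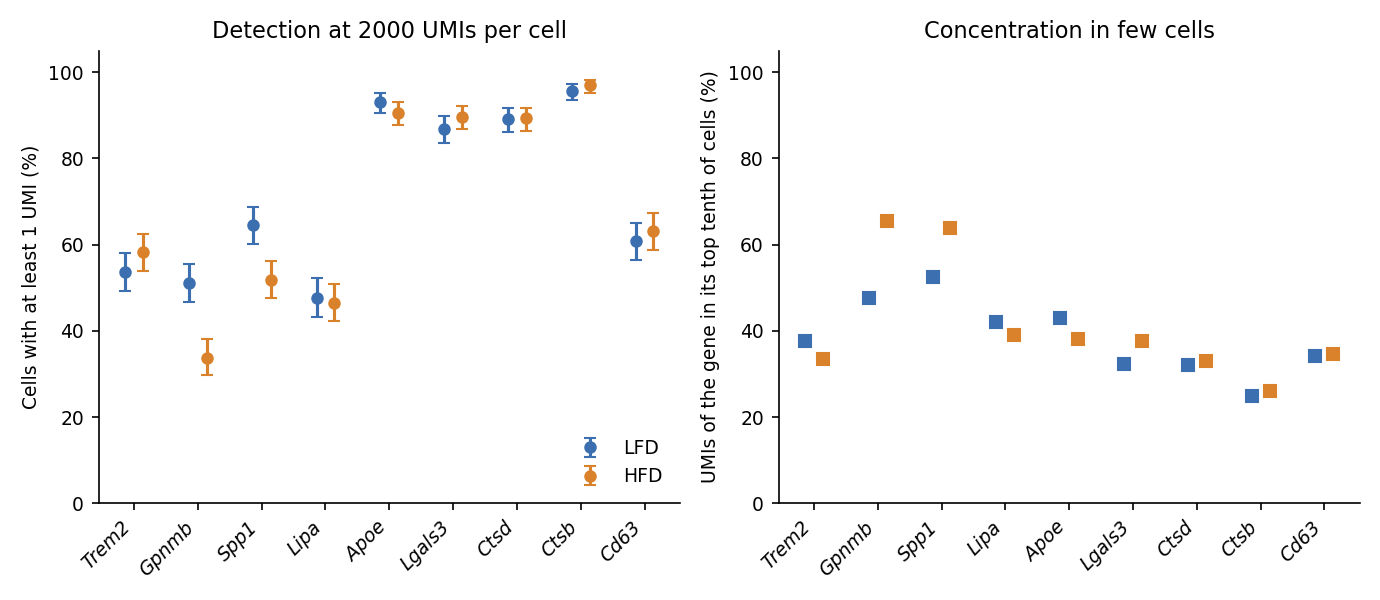
Left, percent of macrophage-gated cells with at least 1 UMI of each member after thinning to 2000 UMIs, with exact 95% binomial intervals; right, percent of a gene's thinned UMIs held by the 10% of cells with most of it. Blue is the LFD and orange the HFD library. Gpnmb and Spp1 are found in fewer HFD cells (33.8% and 51.9%) than LFD cells (51.1% and 64.6%) and are more concentrated in few cells there.

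Trem2, Gpnmb and Spp1 were next counted together in each thinned cell. All 3 were found in 141 of 505 LFD cells (27.9%, 24.0 to 32.1%) and in 81 of 524 HFD cells (15.5%, 12.5 to 18.8%). Gpnmb and Spp1 were each found in fewer HFD cells, so this share is not independent of theirs. Other sets of 3 genes were not counted for comparison. None of the 3 was found in 16.2% (13.1 to 19.7%) and 18.1% (14.9 to 21.7%), where the intervals overlapped. Cells with exactly 1 of them were 26.1% in LFD and 35.3% in HFD. The full set was thus found in a smaller share of HFD cells, while the share with none differed within counting error.

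The other 6 members were higher in cells with all 3 than in cells with none, in both libraries. Counts of Sparc and Col3a1 were negatively correlated with the members' sum (-0.365 and -0.330). The split was not repeated without cells holding such transcripts, so their part in it was not tested. From cells with none to cells with all 3, Ctsd went from 1317 to 6649 CPM in LFD and from 1411 to 5370 CPM in HFD. Ctsb went from 2177 to 6142 CPM and from 2516 to 5698 CPM, Lgals3 from 1390.2 to 3216 CPM and from 1347 to 4673 CPM, Lipa from 201 to 596 CPM and from 279 to 512 CPM, and Cd63 from 573 to 1142 CPM and from 489 to 1488 CPM. Apoe went from 3878 to 19415 CPM in LFD and from 6721 to 10549 CPM in HFD. The order was not strict for every gene, since HFD cells with exactly 1 of the 3 had 6151 CPM of Apoe. Cells with all 3 also held 2028 and 1765 CPM of Fabp5, a fatty acid binding protein, against 274 and 179 CPM in cells with none.

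Genes of resident tissue macrophages differed between the libraries in this respect. From cells with none to cells with all 3, the mean number of resident list genes detected per cell went from 1.44 to 1.76 in LFD and from 3.02 to 1.38 in HFD. In HFD cells with none of the 3 genes, Lyve1, a hyaluronan receptor of perivascular macrophages, was at 311 CPM and Retnla, a secreted product of alternatively activated macrophages, at 653 CPM. In HFD cells with all 3 both had 0 UMIs after thinning. Both lay in a minority of cells. Of the 252 thinned HFD cells without Spp1, 20.2% had Lyve1 and 9.52% had Retnla. In LFD cells both genes were low throughout, on few UMIs, at 18.3 and 12.2 CPM in cells with none and 3.55 and 0 CPM in cells with all 3. Folr2, a folate receptor of resident macrophages, went from 437 to 209.9 CPM in HFD but from 159 to 177 CPM in LFD. Ccr2, the chemokine receptor of recruited monocytes, went from 427 to 28.4 CPM in LFD and from 342 to 123 CPM in HFD.

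**Figure D3:**
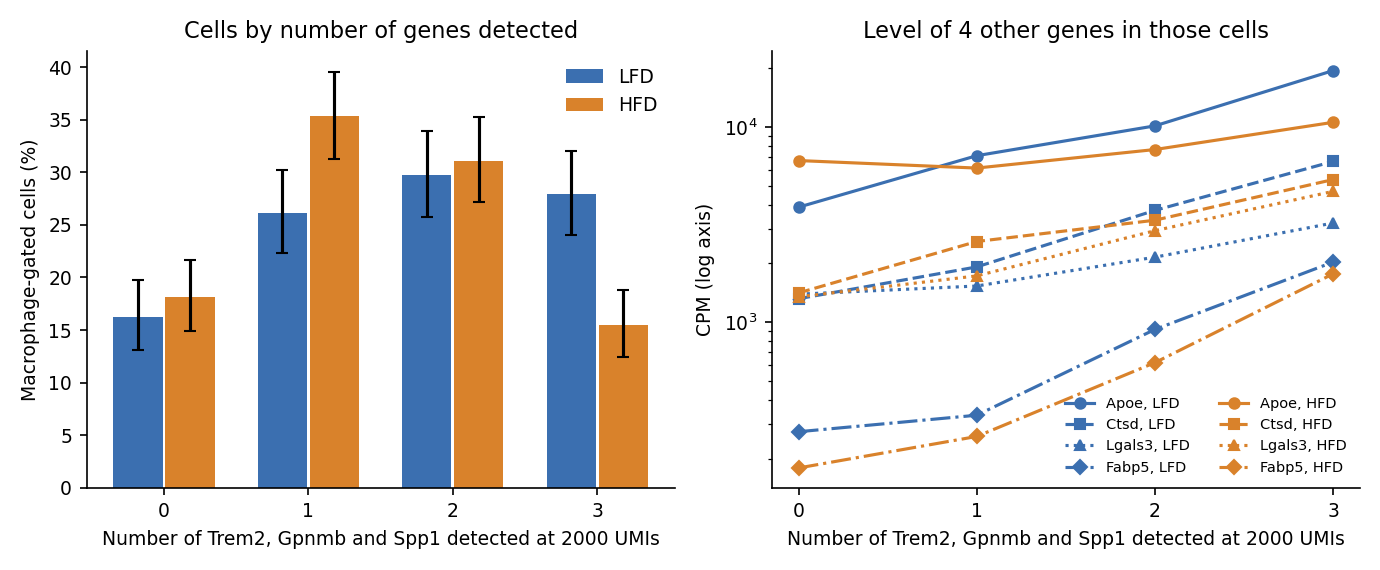
Left, percent of thinned macrophage-gated cells by how many of Trem2, Gpnmb and Spp1 were found, with exact 95% binomial intervals; right, CPM (log axis) of Apoe, Ctsd, Lgals3 and Fabp5 in those cells. Blue is LFD and orange HFD. Cells with all 3 are 27.9% of LFD and 15.5% of HFD cells, and Ctsd and Fabp5 are higher with each further gene in both libraries.

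A split by Gpnmb alone, into 258 LFD cells with and 247 without it and 177 and 347 HFD cells, showed the same order. Ctsd was at 5562 against 1715 CPM in LFD and at 4432 against 2320 CPM in HFD, a ratio of 3.24 (3.00 to 3.51) and 1.91 (1.78 to 2.05). Fabp5 was 5.51 (4.62 to 6.62) and 5.86 (4.87 to 7.07) times as high in cells with Gpnmb. Mmp12, a macrophage elastase, was 2.81 (2.17 to 3.68) and 7.91 (5.27 to 12.2) times as high. Ccr2 stood at 0.249 (0.175 to 0.349) and 0.270 (0.174 to 0.405) of its level in cells without Gpnmb, and Cd163, a scavenger receptor of resident macrophages, at 0.191 (0.0355 to 0.677) and 0.0392 (0.000973 to 0.229). Among the other measured resident genes, Lyve1 (0.213 and 0.155), Fcna (0.255 and 0.372) and Cbr2 (0.414 and 0.579) lay on the same side. F13a1 (0.886 and 0.570) did too, with the LFD intervals of F13a1 and Lyve1 holding 1. Retnla had 0 UMIs in LFD cells with Gpnmb and a ratio of 0.040 in HFD. On the opposite side were Selenop at 2.70 (2.43 to 3.00) and 1.15 (1.04 to 1.26) and Mrc1 at 1.81 (1.45 to 2.28) and 1.04 (0.866 to 1.26). Folr2 (1.18 and 0.855) lay on either side, within counting error. Tyrobp, the adaptor through which TREM2 signals, was nearly even, at 1.16 (1.06 to 1.27) and 1.08 (0.984 to 1.18). Such splits compare cells of 1 library and are given as descriptions.

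Over thinned cells the 36 pairs of members had Pearson correlations of log counts from 0.116 to 0.661 with a median of 0.296 in LFD, and from 0.0765 to 0.564 with a median of 0.233 in HFD. Ctsd and Ctsb made the closest pair in both libraries (0.66 and 0.56), followed in LFD by Gpnmb with Ctsd (0.63) and Gpnmb with Ctsb (0.56). Apoe was tied to Gpnmb in LFD (0.43) more than in HFD (0.17). Of 2481 further genes found in at least 10% of cells, those most like the sum of the members were Ftl1 (ferritin light chain; mean correlation over both libraries 0.603), Ctsl (0.530), Psap (0.502), Lyz2 (0.457), Lgmn (0.439), Ms4a7 (0.439), Ctss (0.428) and Lamp1 (0.417). Of these 8, Ctsl, Ctss, Lgmn, Psap and Lamp1 code for lysosomal proteins. At the other end stood Sparc (-0.365), Nedd4 (-0.339) and Col3a1 (-0.330). These correlations are over 505 and 524 cells of 1 library each, thinned to equal depth, and the members' own counts take a share of that depth.

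Pathways around the members were read from lists of genes. Of 13 genes of lipid uptake, storage and efflux, 4 were higher and 0 lower in HFD by 1.5-fold: the scavenger receptor Cd36 (383 to 770 CPM as LFD to HFD, ratio 2.01, 1.88 to 2.15), the cholesterol exporter Abcg1 (2.11, 1.63 to 2.75), Pparg (1.85, 1.10 to 3.22) and the tetraspanin Cd9 (569 to 899.7 CPM, 1.58). Fabp5 (0.668, 0.636 to 0.701) had the lowest ratio of that list. Of 21 lysosomal enzymes and membrane proteins 0 were lower in HFD by that fold, with Ctsa (0.811) and Ctsc (0.824) lowest and a median log2 ratio of 0.00043. Of 12 genes of the vacuolar proton pump and its regulators 1 was higher, Atp6v0d2 (1.70, 1.39 to 2.09), and Tfeb had 0.853 (0.612 to 1.19).

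Among partners of the surface and secreted members, only the list of galectin 3 and tetraspanin partners held genes past the fold. Of all genes 6.65% were higher and 4.31% lower by it. None of 7 TREM2 signalling partners passed 1.5-fold in either direction, with Pik3cg (1.22) and Syk (1.15) highest and Vav1 (0.765) and Hcst (0.837) lowest. None of 5 measured osteopontin receptors did, with Itgb1 (1.47, 1.34 to 1.60) highest and Itga9 (0.693, 0.507 to 0.946) lowest. Of 6 galectin 3 and tetraspanin partners, Cd9 was higher and Lgals3bp (0.656, 0.566 to 0.760) and Tspan4 (0.656, 0.545 to 0.790) were lower. Of 6 measured apolipoproteins and lipoprotein receptors none passed, Apoc2 (0.718, 0.661 to 0.779) being the lowest, on the same side of 1 as Apoe.

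Further lipid-associated macrophage genes did not move as 1 block. Of 12 of them 3 were higher, Ctsk (3.45, 2.70 to 4.44), Gdf15 (2.33, 1.68 to 3.26) and Cd9, and 3 were lower, Mmp12 (0.619, 0.560 to 0.684), Hmox1 (0.654, 0.620 to 0.690) and Acp5 (0.662, 0.590 to 0.744). By contrast 7 of 9 measured resident macrophage genes were higher in HFD and 0 lower, with a median log2 ratio of 1.22, Lyve1 at 8.95 and 124 CPM (13.8, 9.51 to 20.8) and Fcna at 14.8 and 123 CPM (8.33). The remaining named genes of that list, Mrc1 (1.24) and Selenop (1.02), were the lowest.

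The members were compared with other cell types in 10 classes of at least 30 cells in both libraries, 9 of cells that passed exactly 1 gate and 1 of stromal cells with a UMI of Wt1 or Pdgfra and no gate passed. Of the 9 genes 7 were highest in the macrophage class in LFD and 8 in HFD, as shown by the map of levels by class. The members were chosen as macrophage genes, and the share of all genes highest in that class was not counted. LFD macrophages held Trem2 at 563 CPM (534 to 593) and HFD macrophages at 675 CPM (646 to 705), and the next classes were fibroblastic cells at 15.6 CPM in LFD and mesothelial cells at 5.22 CPM in HFD. Gpnmb was at 1003 and 813 CPM there. The next class in HFD, neutrophils at 56.6 CPM, rests on 5 UMIs of 1 cell. Apoe was at 11302 and 8025 CPM, followed by endothelial cells at 355 and 616 CPM. Ctsd had neutrophils next (1396 and 1550.1 CPM) and was 2.73 and 2.36 times as high in macrophages.

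The exceptions were Lgals3 and Cd63. Lgals3 was higher in dendritic cells (2831 CPM) than in macrophages (2389 CPM) in LFD, and the order turned in HFD (1926 and 3150 CPM). The HFD to LFD ratio of Lgals3 was 0.680 (0.628 to 0.737) in dendritic cells. Cd63 was highest in fibroblastic cells (1620 and 1363 CPM) against 933 and 943 CPM in macrophages, so as a transcript it did not mark macrophages among these cells. Macrophage-gated cells held 2.21% of all Cd63 UMIs in LFD and 4.27% in HFD, close to their 2.92% and 3.99% of all UMIs. They held 87.9% and 74.2% of Gpnmb, 57.1% and 59.5% of Apoe, and only 12.4% and 21.3% of Ctsb UMIs.

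**Figure D4:**
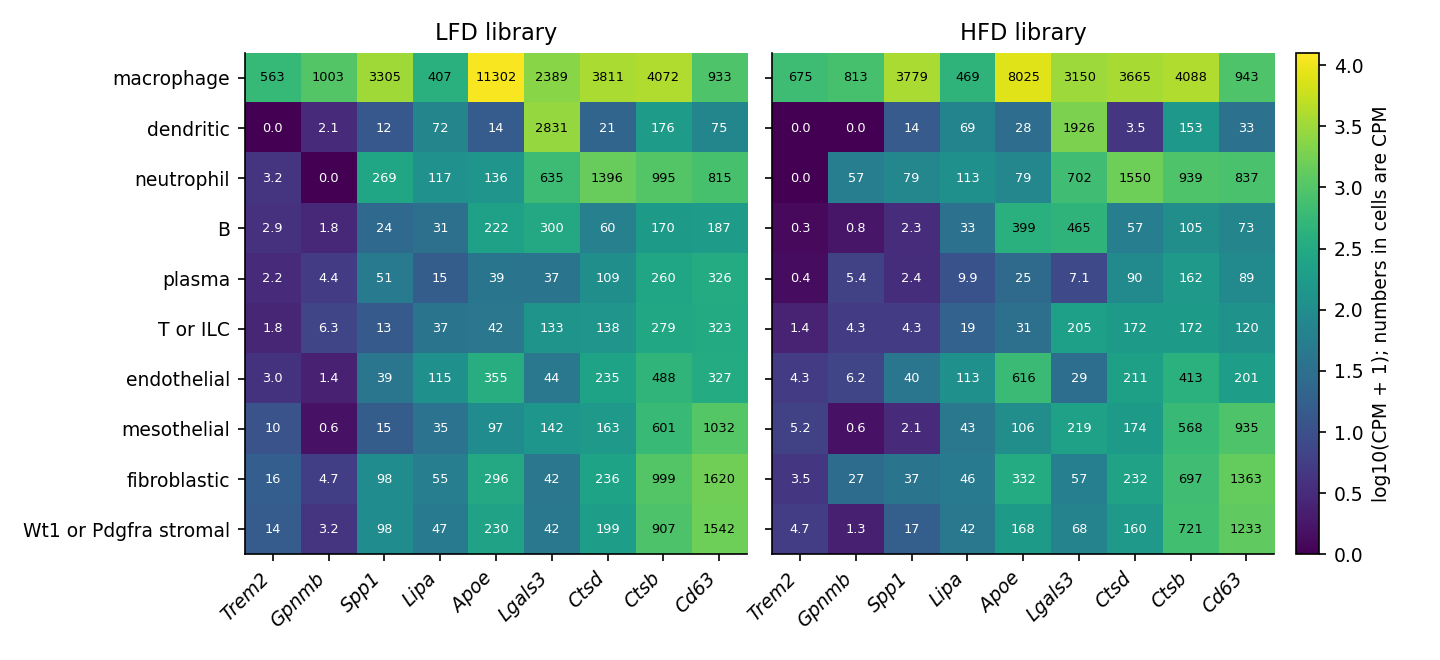
CPM of each member (columns) in each of 10 cell classes (rows) in the LFD and HFD library; colour is log10(CPM + 1) and the numbers are CPM. The macrophage row is highest for Trem2, Gpnmb, Spp1, Lipa, Apoe, Ctsd and Ctsb in both libraries, while Cd63 is highest in fibroblastic cells (1620 and 1363 CPM).

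In the LFD library macrophage-gated cells held 53.5% of Trem2 and 53.7% of Spp1 UMIs, against 84.3% and 86.8% in HFD. Such shares also depend on class sizes, and the Wt1 or Pdgfra stromal class had 3602 LFD and 851 HFD cells. The Wt1 or Pdgfra stromal class had 14.4 CPM of Trem2 (13.3 to 15.6; 650 UMIs in 482 of 3602 cells) in LFD. Its HFD level was 4.65 CPM (3.56 to 5.98), and the HFD to LFD ratio was 0.323 (0.244 to 0.420). Fibroblastic cells had 15.6 CPM (13.9 to 17.6) against 3.45 CPM (2.70 to 4.35) and a ratio of 0.221 (0.168 to 0.287). Mesothelial cells had 10.2 CPM (8.67 to 11.9) against 5.22 CPM (4.20 to 6.42) and a ratio of 0.513 (0.392 to 0.668). B cells had 2.90 CPM (1.66 to 4.71) and 0.260 CPM, from 16 UMIs and 1 UMI, and plasma cells 2.19 and 0.388 CPM, from 12 and 7 UMIs. These 5 classes were lower in HFD, endothelial cells had 2.96 and 4.25 CPM on 13 and 11 UMIs (1.43, 0.582 to 3.47), and Trem2 of macrophage-gated cells was slightly higher.

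The source of the Trem2 and Spp1 UMIs outside the macrophage gate was not tested. The 2668 LFD stromal cells with no UMI of any of the 7 macrophage markers had 15.2 CPM of Trem2 (13.9 to 16.6). No cell of the class held more than 6 Trem2 UMIs. After thinning, 2.88% (2.35 to 3.48%) of LFD stromal cells had a Trem2 UMI, 0.187% (0.0227 to 0.675%) of LFD B cells did, and 0 of 369 LFD plasma cells did (exact upper bound 0.995%).

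Spp1 outside the macrophage gate was lower in HFD in most classes. LFD stromal cells held 98.4 CPM (95.5 to 101) and HFD stromal cells 16.7 CPM (14.6 to 19.1). As LFD and HFD values it was at 98.5 and 36.8 CPM in fibroblastic, 15.0 and 2.09 CPM in mesothelial, 23.9 and 2.34 CPM in B and 50.7 and 2.44 CPM in plasma cells. Single cells weighed on these sums in both libraries. In HFD 1 cell held 62.3% of the fibroblastic and 1 held 53.9% of the stromal UMIs, and in LFD 1 cell held 49.6% of the plasma, 38.6% of the B and 35.7% of the mesothelial UMIs. Without the cell with most Spp1 in each library the ratio went from 0.373 to 0.154 (0.135 to 0.174) in fibroblastic and from 0.170 to 0.0825 (0.0670 to 0.100) in stromal cells. It went the other way, from 0.0481 to 0.0908 (0.0628 to 0.129) in plasma, from 0.0980 to 0.142 (0.0592 to 0.293) in B and from 0.139 to 0.204 (0.136 to 0.297) in mesothelial cells, where LFD then stood at 25.6, 14.7 and 9.69 CPM. Endothelial cells did not share the gap, with 39.0 and 39.8 CPM, but their ratio was 0.550 (0.384 to 0.775) without the top cells.

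Gpnmb went the other way in fibroblastic cells. LFD fibroblastic cells held 4.72 CPM (3.77 to 5.83) and HFD fibroblastic cells 27.1 CPM (24.9 to 29.4). The ratio was 5.74 (4.56 to 7.30), and its 565 HFD UMIs lay in 246 of 1381 cells with at most 12 in any of them. Without the top cell of each library the ratio was 5.82 (4.61 to 7.44). Fibroblastic cells with no macrophage marker UMI had 4.84 and 29.1 CPM of Gpnmb. A Gpnmb UMI was found after thinning in 1.18% (0.690 to 1.89%) of the LFD but 7.03% (5.73 to 8.52%) of the HFD fibroblastic cells, beside 0.469% and 0.271% of B cells and 1.36% (0.441 to 3.13%) and 0.909% (0.455 to 1.62%) of plasma cells. The LFD share was thus not set apart from that of plasma cells. In the stromal class Gpnmb was at 3.24 and 1.30 CPM, and in mesothelial cells at 0.562 and 0.580 CPM. Endothelial cells were also higher in HFD, at 1.37 and 6.18 CPM (4.52, 1.68 to 14.1; 3.81, 1.06 to 16.95 without the top cells), on 6 and 16 UMIs.

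**Figure D5:**
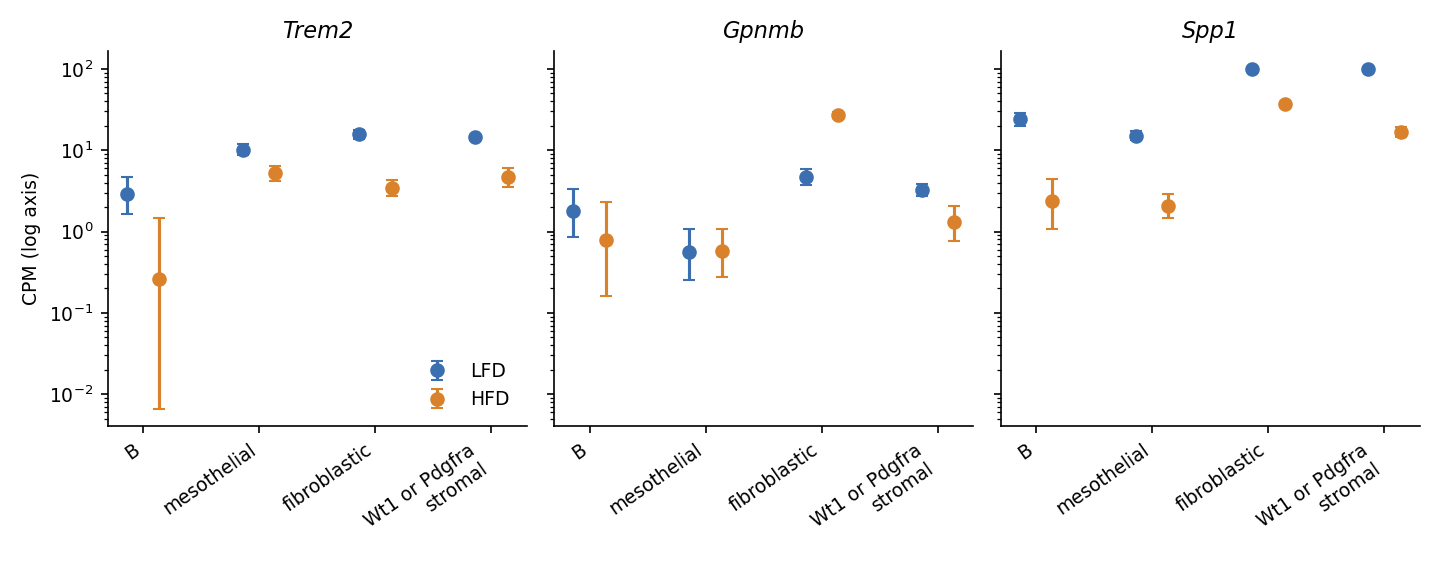
CPM (log axis) of Trem2, Gpnmb and Spp1 in B, mesothelial, fibroblastic and Wt1 or Pdgfra stromal cells that passed no macrophage gate, LFD blue and HFD orange, with exact 95% Poisson intervals. Trem2 and Spp1 are lower in HFD in all 4 classes, and Gpnmb is higher in HFD in fibroblastic cells (27.1 against 4.72 CPM).

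Apoe also differed by class. It was higher in HFD in B cells (222 and 399 CPM; 1.80, 1.67 to 1.94) and endothelial cells (355 and 616 CPM; 1.74, 1.62 to 1.86), while in macrophage-gated cells it was lower. It was slightly higher in fibroblastic (1.12, 1.08 to 1.16) and mesothelial cells (1.09, 1.02 to 1.17). The stromal class (229.5 and 168 CPM; 0.731, 0.698 to 0.766) and plasma cells (38.7 and 25.3 CPM; 0.654, 0.554 to 0.773) were lower as well. Lgals3 was higher in HFD in mesothelial (1.54, 1.46 to 1.62), stromal (1.60, 1.48 to 1.74) and B cells (1.55, 1.45 to 1.66) as it was in macrophages, and lower in endothelial cells (0.666, 0.503 to 0.874) and plasma cells (36.8 and 7.09 CPM; 0.193, 0.153 to 0.241). In LFD 1 plasma cell held 37.6% of the Lgals3 UMIs, and without the top cell of each library the plasma ratio was 0.282 (0.217 to 0.365).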

How the data were processed

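Values were whole UMI counts, not normalised, which the authors made from 10x 3' v3 libraries with Cell Ranger 4.0.0 on mm10. The submitters' processing notes also name STAR, Seurat 4.1.0 and bcl2fastq 2.17.1.14. The deposited gene and barcode lists hold names only. Cells with 500 to 40000 UMIs and under 12.5% mitochondrial UMIs were kept, 2 of the study's limits. Its minimum of 100 genes was not applied, and 2 LFD and 8 HFD retained cells were below it. Doublets were left in and removed in an alternative (Scrublet, scanpy 1.11.5). A gate needed 4 of 7 markers (3 for dendritic and T or ILC cells). Counts were summed per library and scaled to CPM with exact Poisson intervals, ratios have exact conditional binomial intervals, and shares Clopper-Pearson intervals, all at 95%. Ratios were read for genes with at least 50 counts over both libraries, with a fold of 1.5 as the call. Thinned values used 2000 UMIs per cell, where 1 UMI equals 500 CPM. Scripts ran in Python 3.11.15 and were checked on simulated data.

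With 1 library per diet there is no replicate, no test and no p-value. Members, lists and gates were chosen with earlier results of these data known. The genes named from each list are those past the fold and the 2 highest and 2 lowest ratios. Some genes that these rules select are not reported here. Positions are from GENCODE M21, which held 32158 of the 32285 gene IDs, and promoters from RefSeq. Alternatives changed the gate, the cell filters, the scaling, the fold, the count minimum and the thinning depth.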

Additional observations from a re-analysis of the deposited data

Results flagged for a closer look

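For 6 members macrophage-gated cells and another class lay on opposite sides of 1 in the HFD to LFD ratio, counting intervals included, and the class furthest away is given among those with at least 100 cells in each library and 50 UMIs of the gene over both. Of all 9164 genes 11.0% met the same condition in at least 1 of the 7 classes, and of the 379 genes with at least 2864 UMIs in macrophage-gated cells, as each member has, 42.7% did. The difference between classes was not tested, since each diet is 1 library.

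Gpnmb had a ratio of 0.729 in macrophage-gated and 5.74 in fibroblastic cells, 7.88 times apart. Lgals3 had 1.24 in macrophage-gated and 0.193 in plasma cells, 6.45 times apart, and the plasma ratio was 0.282 without the top cell of each library. Trem2 had 1.16 in macrophage-gated and 0.221 in fibroblastic cells, 5.24 times apart. Apoe had 0.662 in macrophage-gated and 1.80 in B cells, 2.72 times apart. For Lipa the ratios were 1.11 in macrophage-gated and 0.508 in T or ILC cells, 2.18 times apart, the latter from 41 and 13 UMIs. For Ctsd they were 0.886 in macrophage-gated and 1.06 in mesothelial cells, 1.20 times apart.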

How the results depend on the processing

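Over 13 other choices of cells or scaling, the ratios of Trem2 (1.03 to 1.35), Gpnmb (0.458 to 0.951), Apoe (0.553 to 0.715) and Ctsd (0.708 to 0.962) each stayed on 1 side of 1. Spp1 (0.855 to 1.22) and Cd63 (0.903 to 1.07) did not, and their main intervals hold 1. Ctsb turned to 1.004 with cells of a second gate left out and to 1.002 with under 5% mitochondrial UMIs, Lipa to 0.977 when each cell weighed equally, and Lgals3 to 0.946 in cells without collagen UMIs. The last choice and leaving out each member's top cell, in macrophage-gated cells and 7 other classes, were made after seeing the data. The cause of these turns was not tested.

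The number of members lower in HFD by the fold, 1 in the main setting, was 0 with a minimum of 3 markers, with cells of a second gate left out and at a fold of 2, and 2 with a minimum of 6 markers and in cells without collagen UMIs, where Gpnmb (0.656 and 0.458) joined Apoe. It was 1 with each cell weighed equally, but Gpnmb (0.655) and not Apoe (0.687). The members' median log2 ratio was 0.039 with the gate on thinned counts, 0.047 under the stricter mitochondrial limit and -0.23 without collagen UMIs. Of all genes 9.54% were higher and 6.52% lower in HFD with a minimum of 20 counts, and 3.56% were higher and 2.58% lower with 200. Removing 922 LFD and 658 HFD doublet calls left 471 macrophage-gated cells in each library and the Apoe ratio at 0.632. A shallower thinning kept the order of Gpnmb (39.5% and 25.3%) and Spp1 (54.4% and 42.6%). No paired analysis was possible because each diet has 1 library, and for the same reason no replicate could be left out.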

Other observations

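Genes of neighbouring macrophage states gave the following values in macrophage-gated cells. Of 7 measured monocyte genes 4 were lower in HFD by at least 1.5-fold and 0 higher: Plac8 (165 and 81.4 CPM, ratio 0.494, 0.432 to 0.566), Chil3 (0.523, 0.451 to 0.607), Ly6c2 (0.603, 0.424 to 0.854) and Vcan (0.615, 0.536 to 0.706). Fn1 (1.46, 1.43 to 1.49) and Ccr2 (0.896, 0.802 to 1.001) had the highest ratios of that list. Of 6 measured genes of serous cavity macrophages, which bathe in the peritoneal fluid around this fat depot, 1 was higher, Vsig4 (5 and 97 UMIs, 13.9, 5.77 to 43.9), and 1 lower, Serpinb2 (690.1 and 229.6 CPM, 0.333, 0.309 to 0.358). Gata6, the transcription factor of those macrophages, was at 59.9 and 59.8 CPM.

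Cells without Trem2 after thinning held more Retnla than cells with it in HFD (290 and 37.7 CPM), whereas Lyve1 was at 169 CPM in both. Retnla was found in only 8.68% of those cells without and 1.97% of those with Trem2. Itgax was at 40.6 CPM in LFD cells without and 14.8 CPM in LFD cells with Trem2, and at 4.57 and 23.0 CPM in HFD, on few UMIs.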
